A study of Mus musculus with 3 samples.

Results

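The mitosis genes are 38 genes, taken from a written list that uses no measured value, although it was drawn up with earlier results of these data known, whose products carry cells through mitosis. All 38 were found among 21728 protein-coding genes outside chromosome Y, and their chromatin accessibility was read as ATAC fragments in LT-HSCs (long-term hematopoietic stem cells). The donors were female C57BL/6J mice without a genetic change (labelled wild-type), aged 24 months. Their marrow was enriched for c-Kit, and CD150+CD48-CD34- cells were sorted from the Lin-Sca-1+c-Kit+ fraction. They were profiled as 1 pool by DOGMA-seq, which reads open chromatin, RNA and bound antibody tags from each cell, so that the 3 samples are 3 assays of the same cells. No agent, transgene or young group is part of the pool, and the labels do not say how many animals contributed. The question addressed is how accessible mitosis genes were in these old stem cells, and whether that differed with the antibodies with which the study separates platelet-biased (PLT) from multi-lineage (MUL) HSCs.

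Mitosis begins when cyclin-dependent kinase 1, paired with its cyclins, becomes active. It ends when the anaphase-promoting complex has those cyclins degraded and the cell divides by cytokinesis. In between, kinetochores attach chromosomes to the spindle under the watch of checkpoint kinases. Genes for these proteins are transcribed late in the cell cycle and are held down in resting cells, and most LT-HSCs rest. Many carry a cell cycle genes homology region (CHR), which the MuvB complexes bind, and CCAAT boxes, which NF-Y binds.

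The deposited antibody table held 3724 cells, of which 3629 had at least 10 tags and were kept. They held 38498362 nuclear fragments, with a median of 10287 per cell (3853 to 45069), a median of 1978 RNA UMIs and a median of 29 tags. Doublets were not removed. In 279 kept cells (7.69%) more sites were covered by at least 3 fragments than a Poisson expectation from the mean over all cells gives. This excess of overlaps is not adjusted for depth: such cells had a median of 17864 nuclear fragments and the others 10041.5. With 1 pool there are no replicates, so no test was made. Intervals are exact 95% intervals that cover counting error only. A difference between groups of cells is described as past the fold when it reached 1.5-fold with at least 20 fragments in the 2 groups together. Levels are given as fragments per 1000000 nuclear fragments (FPM). As a check of the label, 6 of 10 HSC marker promoters were at or above the median of all genes (10.2 FPM), as were 4 of 7 megakaryocyte, 1 of 6 erythroid, 2 of 6 B cell, 1 of 3 multipotent progenitor and none of 7 myeloid and 6 T cell markers. The median level was 16.5 FPM for the HSC list, 1.19 FPM for the myeloid list and 0.597 FPM for the T cell list. Among genes singled out after their values were seen, the HSC gene Mecom stood at 0.494 FPM at the start used here and Slamf1, which encodes CD150, at 4.29 FPM.

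Promoter sequences of 31 of the 38 genes were found in RefSeq (GRCm38.p6, from 250 bases before the RefSeq start to 50 bases from it on). They were searched on both strands for the CHR letters TTTGAA or TTCGAA and for CCAAT, and a base at the end of one match may belong to another. A CHR match lay in 24 of the 31 promoters (77.4%) and in 17.2% of 16432 protein-coding promoters of the same length. A CCAAT match lay in 74.2% of the mitosis promoters and in 38.9% of all promoters. Both a CHR and at least 2 CCAAT matches were held by 48.4% of the mitosis promoters and by 2.41% of all. The 19 other promoters of the G2/M expression signature held them about as often, with a CHR in 68.4%, CCAAT in 84.2% and both with at least 2 CCAAT in 42.1%. Of 33 promoters of other mitotic machinery, 39.4% held a CHR and 48.5% CCAAT. Of 26 DNA replication promoters, 23.1% held a CHR, but 69.2% held CCAAT, close to the share of the mitosis promoters. The promoters that follow belong to genes the results turn on. Cdk1, Ccnb2, Plk1 and Cdc20 hold a CHR match close to the start, and Birc5 holds no match to the letters searched for either motif. Variants of the CHR with other letters were not searched. Cdca8 is the member whose level changed by the largest fold when read around its RefSeq start. Capitals mark CHR and CCAAT matches on either strand, and each sequence reads 5′ to 3′ on the strand of its gene.
Cdk1: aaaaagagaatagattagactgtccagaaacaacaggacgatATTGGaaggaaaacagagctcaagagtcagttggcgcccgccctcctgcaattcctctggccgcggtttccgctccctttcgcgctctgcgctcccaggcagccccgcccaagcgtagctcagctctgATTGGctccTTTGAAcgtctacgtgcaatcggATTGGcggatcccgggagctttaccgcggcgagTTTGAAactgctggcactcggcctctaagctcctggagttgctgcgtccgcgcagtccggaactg
Ccnb2: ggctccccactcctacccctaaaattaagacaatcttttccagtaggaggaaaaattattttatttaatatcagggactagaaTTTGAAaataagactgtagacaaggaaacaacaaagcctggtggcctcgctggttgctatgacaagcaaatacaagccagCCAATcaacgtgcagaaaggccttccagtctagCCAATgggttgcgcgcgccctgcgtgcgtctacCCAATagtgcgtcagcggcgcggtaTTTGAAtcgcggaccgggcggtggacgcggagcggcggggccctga
Plk1: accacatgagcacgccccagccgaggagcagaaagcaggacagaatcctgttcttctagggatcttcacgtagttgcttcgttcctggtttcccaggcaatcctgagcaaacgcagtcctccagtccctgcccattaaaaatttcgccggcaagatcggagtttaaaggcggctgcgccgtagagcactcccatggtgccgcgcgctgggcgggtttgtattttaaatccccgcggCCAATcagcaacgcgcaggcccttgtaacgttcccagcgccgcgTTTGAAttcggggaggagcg
Cdc20: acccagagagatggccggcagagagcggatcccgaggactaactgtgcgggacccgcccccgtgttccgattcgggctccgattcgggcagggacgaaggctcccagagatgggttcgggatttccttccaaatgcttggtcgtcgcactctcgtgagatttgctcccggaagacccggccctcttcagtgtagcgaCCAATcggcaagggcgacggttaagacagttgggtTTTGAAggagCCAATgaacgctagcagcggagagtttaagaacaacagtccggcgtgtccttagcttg
Cdca8: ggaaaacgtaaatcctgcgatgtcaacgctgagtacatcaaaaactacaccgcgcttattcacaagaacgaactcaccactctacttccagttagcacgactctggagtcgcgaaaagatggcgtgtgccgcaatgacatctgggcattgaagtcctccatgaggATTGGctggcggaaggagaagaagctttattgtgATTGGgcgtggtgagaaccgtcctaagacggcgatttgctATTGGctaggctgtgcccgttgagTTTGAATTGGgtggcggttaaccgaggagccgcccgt
Birc5: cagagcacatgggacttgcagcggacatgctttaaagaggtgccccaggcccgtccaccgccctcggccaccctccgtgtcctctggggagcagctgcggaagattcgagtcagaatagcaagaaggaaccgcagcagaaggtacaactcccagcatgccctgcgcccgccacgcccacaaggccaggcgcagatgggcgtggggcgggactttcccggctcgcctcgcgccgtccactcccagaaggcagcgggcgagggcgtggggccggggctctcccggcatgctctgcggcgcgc

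These 6 windows lie at chr10:69352863-69353162, minus strand (Cdk1), chr9:70421505-70421804, minus strand (Ccnb2), chr7:122159185-122159484, plus strand (Plk1), chr4:118437294-118437593, minus strand (Cdc20), chr4:124936868-124937167, minus strand (Cdca8) and chr11:117848987-117849286, plus strand (Birc5). In Cdk1 CHR matches began 71 and 15 bases before the start, in Cdc20 a match began 18 bases before it, and in Ccnb2 and Plk1 matches began at bases 5 and 31 from it. The places were narrow as a group. A CHR match beginning within 60 bases before or 50 after the start was held by 21 of the 31 promoters (67.7%), against 4.64% of all promoters, 47.4% of the other G2/M signature promoters, 33.3% of those of other mitotic machinery and 7.69% of 26 DNA replication promoters. Neither motif was found in Birc5, Nuf2, Nusap1 and Tacc3 (12.9%, against 51.1% of all promoters). E2F letters (TTTGGCGC, TTTCCCGC, TTTGCCGC or TTTCGCGC, on both strands) were found in 1 mitosis promoter, that of Cdk1 (3.23%, against 2.96% of all), whereas 34.6% of the replication promoters held them. The median promoter level was 33.8 FPM in the 24 genes with a CHR match and 33.6 FPM in the 7 without. These levels were read at the start of the gene record and the motifs at the RefSeq start. The 2 starts lie 2394 bp apart in Cdca8 and 3867 bp apart in Kif2c, both counted among the 24.

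The promoters of the mitosis genes were open in old LT-HSCs. Over a window of 1 kb on each side of the start of the gene record, 37 of the 38 genes were at or above the median of all protein-coding promoters, and their median level was 33.5 FPM against 10.2 FPM for all genes. Together they held 52994 promoter fragments. For comparison, the median was 0.0260 in 1134 olfactory receptor genes, which blood cells do not use, 30.8 in 12 housekeeping genes and 36.6 in 33 DNA replication genes. Levels from one member to the next mostly ran together: of 37 neighbours in the order of levels, 6 had intervals that did not overlap, namely those below Cdca3, Cdca2, Tacc3, Smc4, Plk1 and Bub1b.

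**Figure D1:**
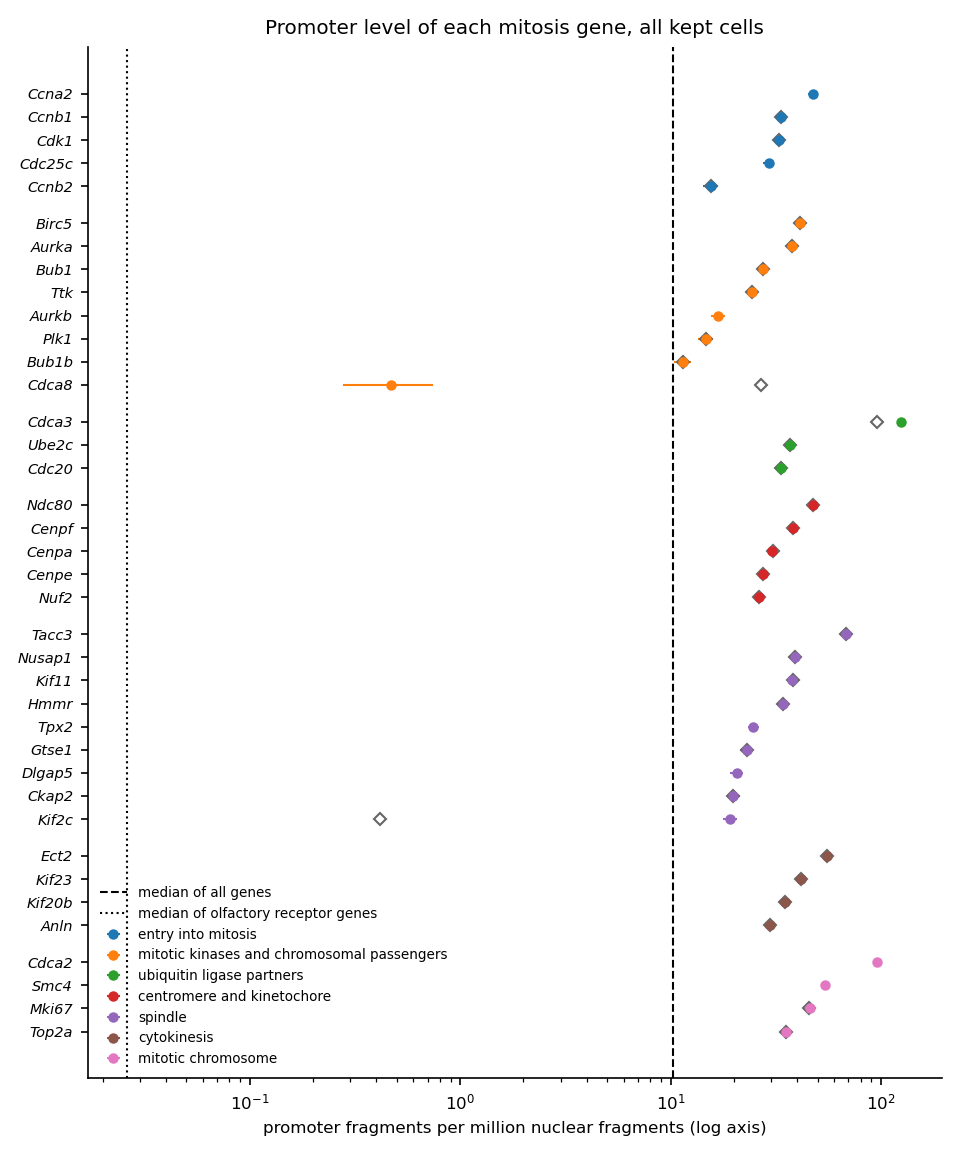
Promoter level of each mitosis gene in fragments per 1000000 nuclear fragments (FPM) of all kept cells, on a log axis, grouped and coloured by role, with exact 95% Poisson intervals. Open diamonds are levels around RefSeq starts, the dashed line is the median of all genes (10.2) and the dotted line that of olfactory receptor genes. 37 of 38 points lie right of the dashed line, and Cdca8 moves from 0.468 to 26.8 with its RefSeq start.

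Among the genes for entry into mitosis, Ccna2, the cyclin of S phase and early mitosis, had the highest promoter level at 47.3 FPM (45.1 to 49.5), and 37.2% of cells had a fragment there. Ccnb1, the main mitotic cyclin, stood at 33.6 (31.8 to 35.4) and its kinase Cdk1 at 32.6 (30.8 to 34.5), with intervals that overlap. Cdc25c, a phosphatase that activates Cdk1, stood at 29.2. Ccnb2, the second B-type cyclin, was lower at 15.6 (14.3 to 16.9), so the 2 B-type cyclin promoters differed beyond counting error. The median over these 5 genes was 32.6.

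The mitotic kinases and chromosomal passengers had a median of 20.6 FPM over 8 genes, which counts Cdca8 at its annotated start. Birc5 (survivin, a passenger subunit) stood at 41.3 FPM and Aurka, the centrosomal Aurora kinase, at 37.9. The checkpoint kinases Bub1 and Ttk stood at 27.4 and 24.3. Aurkb, the kinase of the passenger complex, stood at 16.8, Plk1, the Polo-like kinase, at 14.7 and Bub1b, a subunit of the mitotic checkpoint complex, at 11.4. Cdca8 (borealin, a passenger subunit) was the only member below the median of all genes, with 18 fragments, 0.468 FPM (0.277 to 0.739) and 0.468% of cells with a fragment.

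The low value of Cdca8 belonged to the annotated start. The gene record begins 2394 bp upstream of the RefSeq start, and around the RefSeq start Cdca8 had 1031 fragments or 26.8 FPM (25.2 to 28.5). Kif2c showed the reverse: 19.2 FPM at the gene record and 0.416 around a RefSeq start 3867 bp downstream. Cdca3 fell from 123.9 to 96.0 with a RefSeq start 629 bp downstream. With RefSeq starts throughout, 29 of 31 members were at or above the median of 16432 genes (13.2), and the median of the members was 33.6.

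Cdca3, which works with ubiquitin ligases, had the highest promoter level of all members at 123.9 FPM (120.4 to 127.5), at or above 99.9% of promoters, and 68.9% of cells had a fragment there. Ube2c, the ubiquitin-conjugating enzyme of the anaphase-promoting complex, stood at 36.8 and Cdc20, the activator of that complex, at 33.5. Among centromere and kinetochore genes, Ndc80 (47.7) and Nuf2 (26.2) encode subunits of the same microtubule-binding complex. Cenpf stood at 38.3, Cenpa, the centromeric histone, at 30.4 and Cenpe, a kinetochore motor, at 27.5.

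The spindle genes ran from Tacc3 (67.9), a microtubule-binding partner of Aurora A, through Nusap1 (39.0), Kif11 (37.9, the motor that separates spindle poles), Hmmr (34.1), Tpx2 (24.8, an activator of Aurora A), Gtse1 (23.0), Dlgap5 (20.6) and Ckap2 (19.9) to Kif2c (19.2), a microtubule-depolymerizing motor. Of the cytokinesis genes, Ect2, the exchange factor that activates RhoA, stood at 55.7, Kif23 (a subunit of centralspindlin) at 41.6, Kif20b at 35.0 and Anln, which binds actin and septins, at 29.8. The mitotic chromosome genes had the highest median of the roles (49.9), with Cdca2 (95.9), which targets a phosphatase to chromatin, Smc4 (54.0, a condensin subunit), Mki67 (45.7, the antigen Ki-67) and Top2a (35.4, topoisomerase II alpha). Mki67 is widely used as a label of cycling cells, and here 36.1% of cells had a fragment at its promoter.

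Several of the highest members share their promoter with another gene on the opposite strand, and ATAC fragments cannot be given to either. A protein-coding start lay within 1 kb of Cdca3 (Usp5), Cdca2 (Kctd9), Tacc3 (Tmem129), Smc4 (Ift80), Nusap1 (Oip5), Aurka (Cstf1) and Hmmr (Nudcd2). The median level of these 7 was 54.0, and that of the other 31 was 29.8. A start of a non-coding gene lay within 1 kb of Ect2, Cdc25c, Ube2c and Plk1. Among the 27 members with no other start in the window the highest was Ndc80, and their median was 29.8.

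Most fragments lay close to the start. In 33 of the 38 genes the 20 bp bin with the most insertions lay between 190 bp before and 30 bp after the start, with a median of -50 bp over all 38. The others were Nusap1 (310), Tacc3 (330), Dlgap5 (110), Aurka (-370) and Cdca8 (630, on few insertions). Fragments too short to span a nucleosome made up 48.3% of those over mitosis promoters, 42.7% over other protein-coding promoters and 23.1% over olfactory receptor promoters. That share was highest in Cenpf (68.3%) and lowest among members with at least 100 fragments in Plk1 (25.2%). In the promoter windows of RefSeq, the median ratio of observed to expected CpG was 0.878 in the members and 0.604 in all genes. It was 0.887 in the other G2/M signature genes, 0.903 in the other mitotic machinery and 0.861 in the DNA replication genes.

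**Figure D2:**
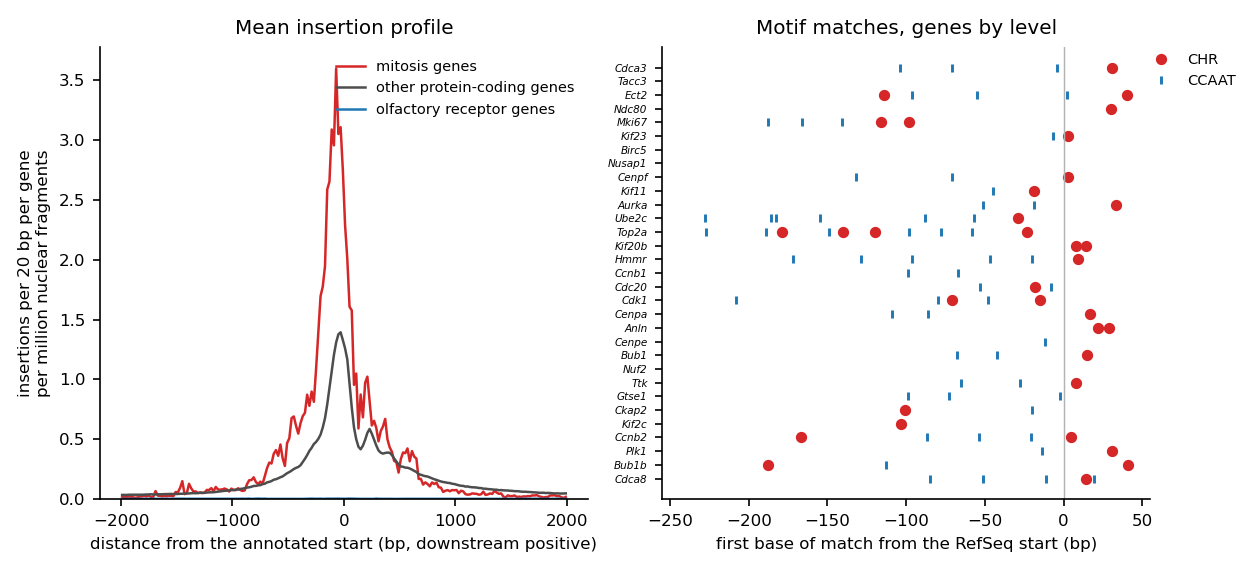
Left, mean insertions per 20 bp bin and gene, per 1000000 nuclear fragments, against distance from the annotated start in bp, for mitosis genes, other protein-coding genes and olfactory receptor genes. Right, places of CHR (circles) and CCAAT (bars) matches in bp from the RefSeq start for 31 mitosis genes, ordered by promoter level from the top. The mitosis profile peaks upstream of the start, above that of other genes, and 21 of the 31 promoters hold a CHR within 60 bp before or 50 bp after the start.

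Over the gene body and 2 kb upstream, the members held 65207 fragments. This window includes the promoter window, and the promoter count was a median of 85.7% of the body count. Promoter and body ratios between groups of cells therefore largely rest on the same fragments. The median density was 1.36 FPM per kb, against 0.835 FPM per kb for all genes, and 32 of 38 were at or above the latter. In 36 of the 38 genes at least 50% as many fragments lay over the promoter window as over the body window, the exceptions being Bub1b (45.0%) and Cdca8 (1.62%). By density the short genes led: Cdca3 had 21.1, Cdc20 5.50, Birc5 5.25 and Ccna2 5.25, and the lowest were Ttk (0.677), Cenpe (0.669), Tpx2 (0.630) and Bub1b (0.559). Body windows of 13 members overlap another protein-coding gene, among them Ccna2 (Bbs7 and Exosc9) and Cdc20 (Elovl1).

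Of 20 further genes of the G2/M expression signature, 20 were at or above the median of all genes, with a median of 45.3 FPM, from Hjurp (169.8), Tubb4b (93.4) and Cbx5 (90.8) down to Pimreg (770 fragments), G2e3 (19.8) and Psrc1 (10.9). Of 39 other genes of the mitotic machinery 38 were at or above it, with a median of 34.3. Cep55 (78.3), Smc3 (64.1) and Mis12 (63.6) were highest there, and Kif22 (13.0), Melk (11.1) and Stag1 (0.156) lowest. Of 19 regulators of mitosis genes, 18 were at or above it with a median of 38.3. They ranged from Nfya (114.1), Rbbp4 (80.6) and Lin52 (77.2) to Rbl1 (22.9), E2f4 (17.1) and Nfyc (0.312). Of 33 DNA replication genes, 30 were at or above it, with Gins2 (81.7) and Pcna (68.2) among the highest and Tyms (5.71), Rfc2 (4.16) and Lig1 (2.52) lowest.

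Per cell, the members gave a median of 14 promoter fragments (2 to 48), and a median of 11 of the 38 promoters had a fragment (2 to 27). Each promoter was seen with 1 fragment in 21.3% of all pairs of promoter and cell, with 2 in 5.59% and with 5 or more in 0.108%. After each cell was thinned to 6000 fragments, which left out 244 shallower cells, the median was 8 (0 to 22) and 1 of 3385 cells had none. The variance of this count over its mean was 1.16, where counting alone gives about 1, beside 1.14 for the DNA replication genes, 1.10 for housekeeping genes and 1.05 for the other mitotic machinery.

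The members and all genes had lower promoter levels in deeper cells. Over 4 bins of cells by ATAC fragments, the summed promoter level of the members was 1501 FPM (1470 to 1531) in the shallowest and 1413, 1356 and 1313 FPM (1294 to 1333) in the deeper ones. Per 1000000 promoter fragments, the same bins had 3486, 3390, 3420 and 3476, with no such order. The log2 ratio of the deepest over the shallowest cells was -0.19 for the members (-0.23 to -0.16) and -0.19 for all genes. Of the cells in the deepest group 30.2% had an excess of overlaps, and of those in the shallowest none. The call is not adjusted for depth, so these shares follow the split itself. No member was past the fold, where 5.03% of 15264 promoters and 5.21% of gene bodies were. Intervals lay below 0 for 15 of 37 members and above 0 for 2, where 25.9% and 2.32% of all promoters did. The lowest ratio was that of Hmmr (-0.56, -0.78 to -0.33), and Plk1 (0.43, 0.06 to 0.83) and Bub1b (0.48, 0.06 to 0.93) were the members with an interval above 0.

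By RNA UMIs, the summed level was 1437 FPM in the lowest of 4 bins and 1348 FPM in the highest. The ratio of high over low was -0.095 (-0.13 to -0.060) for the members and -0.11 for all genes, and no member was past the fold, where 4.89% of promoters and 4.74% of gene bodies were. Scaled by promoter fragments it was 0.017, so its sign rested on the scale. Cells with an excess of overlaps over the others gave -0.047 for the members (0.023 when scaled by promoter fragments) and -0.070 for all genes, with no member past the fold against a background of 6.93% of promoters and 4.99% of gene bodies.

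**Figure D3:**
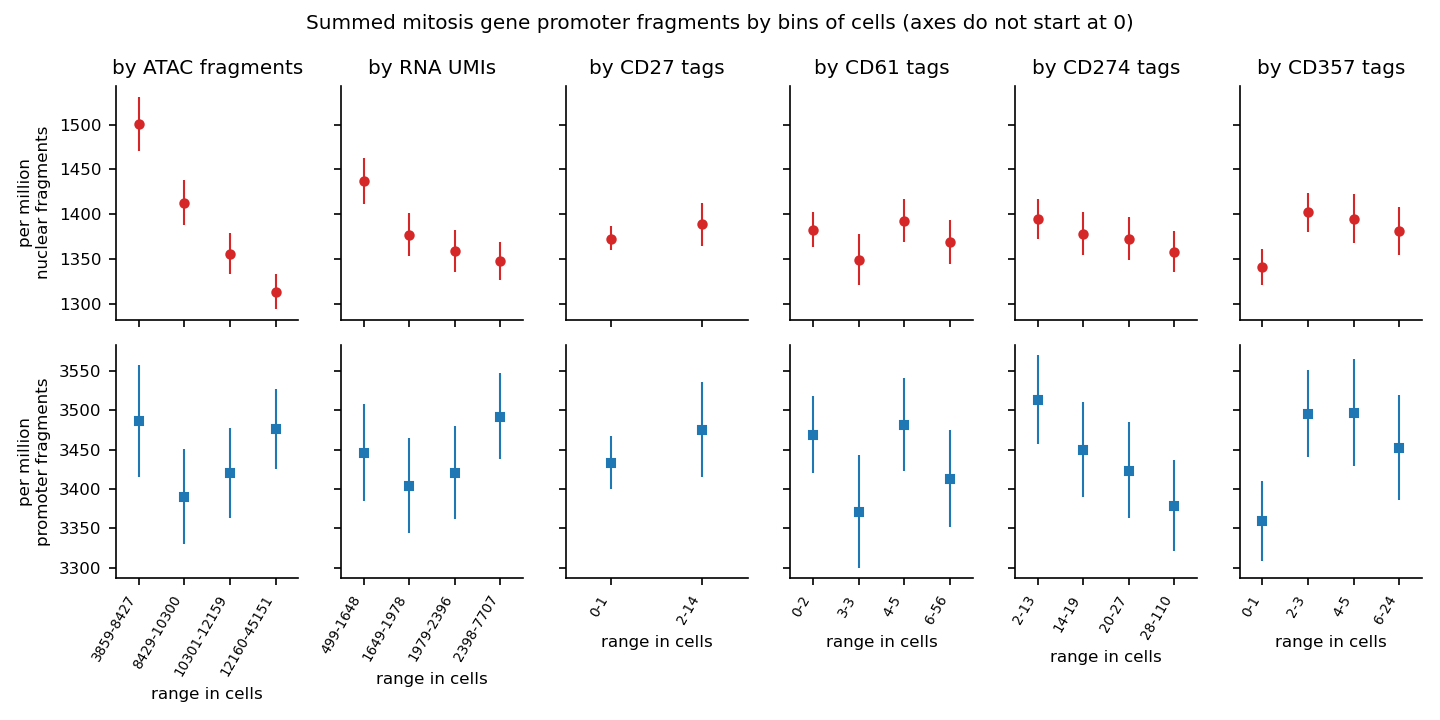
Summed promoter fragments of the mitosis genes in bins of cells by ATAC fragments, RNA UMIs and 4 antibodies, per 1000000 nuclear fragments (top, circles) and per 1000000 promoter fragments (bottom, squares), with exact 95% Poisson intervals. The horizontal axes give the range of each bin, and the vertical axes do not start at 0. The fall with ATAC fragments from 1501 to 1313 in the top row is absent from the bottom row.

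Of the 4 antibodies of the study's gates, CD274 (PD-L1) and CD61 (integrin beta 3) mark the PLT side and CD357 (GITR) and CD27 the MUL side. Cells with many CD274 tags had a lower summed mitosis promoter level: 1358 FPM in 937 high cells and 1395 FPM in 877 low cells, a log2 ratio of -0.038 (-0.072 to -0.0034), whereas all promoters together gave 0.021. Across all kept cells, the rank correlation of member promoter fragments with CD274 tags, given nuclear fragments, was only -0.011. High cells also had more tags in all, with a median of 46 against 17. Over gene bodies the ratio was -0.070 (-0.10 to -0.039) against -0.000012 for all genes. No member was past the fold, where 4.62% of promoters and 3.34% of gene bodies were. Intervals below 0 were found for 5 promoters, those of Plk1 (-0.45), Ccnb2 (-0.38), Cdk1 (-0.26), Kif20b (-0.26) and Nusap1 (-0.23), and an interval above 0 for Cdca2 (0.15). Over all promoters 3.50% of intervals lay below 0 and 6.42% above.

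By role, the entry genes (-0.11, -0.21 to -0.0034) and the kinases and passengers (-0.10, -0.20 to -0.0029) were lower in CD274-high cells, the centromere and kinetochore genes gave 0.0075 and the mitotic chromosome genes 0.031. The DNA replication genes gave -0.018 (-0.054 to 0.018) at promoters and -0.049 (-0.080 to -0.018) over bodies. The summed promoter level fell through the 4 CD274 bins from 1395 to 1378, 1373 and 1358, with intervals that overlap from one bin to the next. Of high cells 13.4% had an excess of overlaps and of low cells 6.61%, and without those cells the promoter ratio was -0.038. Over all alternatives the promoter ratio ran from -0.072 to -0.024. Of the marker lists compared, only the erythroid list is given here, and a different one is given for CD357 and for the gates. The 6 erythroid genes were also lower in CD274-high cells (277 and 365 summed fragments, -0.54, -0.77 to -0.31), and their part in the result was not tested. Without the other lists, these values cannot be called particular to erythroid genes.

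Cells with many CD357 tags had a higher summed mitosis promoter level. The summed level was 1383 FPM in 968 high cells and 1341 FPM in 1200 low cells, a log2 ratio of 0.045 (0.013 to 0.077), and 0.047 (0.018 to 0.076) over gene bodies, against 0.000060 for all promoters and -0.0011 for all bodies. The DNA replication genes gave 0.018 (-0.015 to 0.052) at promoters and 0.041 (0.013 to 0.070) over bodies. No member was past the fold, where 3.67% of promoters and 2.41% of bodies were. Intervals above 0 belonged to Cenpa (0.36, 0.14 to 0.58), Nuf2 (0.33, 0.10 to 0.56) and Tpx2 (0.30, 0.06 to 0.53), and none lay below 0, where 2.91% of all promoters lay above and 3.38% below. The centromere and kinetochore genes gave 0.14 (0.046 to 0.23) and the mitotic chromosome genes 0.091 (0.013 to 0.17), whereas the entry genes gave -0.057 (-0.15 to 0.038), with all 5 of them below 0. Of 37 members, 21 lay above 0. Across all kept cells, the rank correlation of member promoter fragments with CD357 tags, given nuclear fragments, was 0.060. The further genes of the G2/M signature gave 0.051 (0.015 to 0.088), and the other mitotic machinery 0.0032 (-0.029 to 0.035). Cells with 0 or 1 tag stood at 1341 FPM and the 3 bins above them at 1402, 1395 and 1381. Of high cells 12.1% had an excess of overlaps and of low cells 5.83%, and their median numbers of tags were 36 and 25. Without cells with an excess of overlaps the promoter ratio was 0.044, and with shares of tags it was 0.088. But in the 363 cells with at least 50 tags the sign reversed, to -0.00060 at promoters and -0.013 over bodies. Of the marker lists compared, only the HSC list is given here. Its 10 genes gave 0.11 (0.030 to 0.19), and their part in the result was not tested. Without the other lists, this value cannot be called particular to HSC genes.

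CD61 gave -0.037 (-0.074 to 0.0013) at promoters and -0.043 (-0.078 to -0.0092) over bodies, and CD27 gave 0.014 (-0.018 to 0.045) and 0.017 (-0.011 to 0.046). In cells with at least 50 tags the CD27 ratio was 0.11 at promoters and 0.11 over bodies. With outer tertiles the CD61 ratio at promoters was 0.0013, and in cells with at least 50 tags that over bodies was 0.022, both with the sign reversed. For CD61 the DNA replication genes gave -0.060 (-0.10 to -0.020) and -0.058 (-0.092 to -0.024). No member was past the fold with either, against a background of 4.13% of promoters and 2.69% of bodies for CD61 and 3.58% and 2.51% for CD27. Cdc20 (-0.36), Birc5 (-0.27) and Kif23 (-0.27) had intervals below 0 in CD61-high cells and Cenpf (0.32) one above, where 3.14% of all promoters lay below and 4.11% above. Kif2c (0.45, 0.18 to 0.71) and Cdca2 (0.12) were higher in CD27-high cells by their intervals, and Ccnb2 (-0.36, -0.68 to -0.05) was lower, where 2.87% of all promoters lay above and 3.09% below.

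Cells in the PLT gate were above the median for CD61 and CD274 and not above it for CD357 and CD27 (342 cells), and cells in the MUL gate were the reverse (61 cells). The MUL gate held 600356 nuclear fragments, which bounds every value here. The members gave 1375 FPM at promoters in the PLT gate and 1502 FPM in the MUL gate, a log2 ratio of -0.13 (-0.23 to -0.024) where all promoters gave 0.013. Over bodies it was -0.12 (-0.21 to -0.021) and 0.0030. The housekeeping genes gave -0.17 (-0.35 to 0.011) and the replication genes -0.082 (-0.19 to 0.030) at promoters, and both intervals overlap that of the members. Without the 11 members that have another start within 1 kb the ratio was -0.28, and with gates set on each antibody's share of tags it was -0.046.

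Past the fold, 5 of 37 members were lower in the PLT gate and none higher, where 20.5% of 13081 promoters were past it in either direction and 8.74% lower. Birc5 had 140 fragments in the PLT gate and 44 in the MUL gate, 39.5 and 73.3 FPM, a log2 ratio of -0.90 (-1.39 to -0.37). Ckap2 gave -0.80 (-1.55 to 0.07), Bub1 -0.79 (-1.38 to -0.12), Cenpf -0.72 (-1.26 to -0.11) and Tpx2 -0.61 (-1.32 to 0.23). Intervals that leave out 0 were thus found for 3 of 37, a share to be read beside 4.63% of all promoters. The kinases and passengers gave -0.47 (-0.72 to -0.19) and the entry genes 0.18 (-0.15 to 0.55). Over gene bodies Birc5 (-0.87), Ttk (-0.62) and Ckap2 (-0.60) were past the fold, where 14.1% of genes were and 6.45% lower. Of cells in the PLT gate 7.60% had an excess of overlaps and of those in the MUL gate 3.28%. The median number of tags was 37 in the PLT gate and 26 in the MUL gate. Of the marker lists compared, only the T cell list is given here. Its 6 genes had 15 fragments in the PLT gate and 8 in the MUL gate (-1.69, -2.98 to -0.21), and their part in the result was not tested. Without the other lists, these few fragments cannot be called particular to T cell genes.

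**Figure D4:**
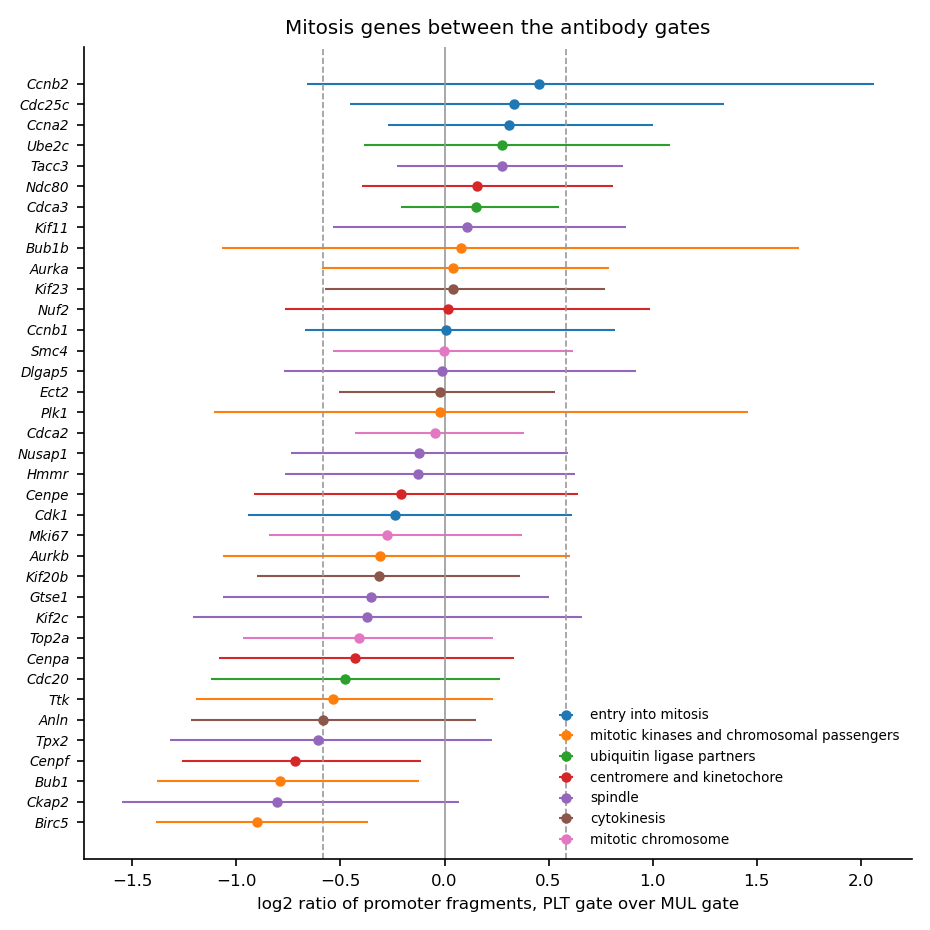
Log2 ratio of promoter fragments in the PLT gate (342 cells) over the MUL gate (61 cells), coloured by role, with exact conditional binomial 95% intervals. The 37 mitosis genes with at least 20 fragments in the 2 gates together are shown. Dashed lines mark 1.5-fold. Birc5, Ckap2, Bub1, Cenpf and Tpx2 lie past the lower line, and the intervals of Ckap2 and Tpx2 include 0.

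Among the remaining antibodies no summed promoter ratio had an interval that left out 0. CD163 and CD206, markers of macrophages, were seen on few cells (71 and 82 high cells), and there 22.9% and 21.1% of all promoters were past the fold. In CD163-high cells Dlgap5 (7 fragments, -1.05, -2.46 to -0.10) and Nusap1 (18 fragments, -0.66) were lower. In CD206-high cells Dlgap5 was higher (29 fragments, 0.75, 0.13 to 1.26), and Nusap1 (-0.66) and Bub1b (-0.86, -2.63 to 0.24) were lower. Over bodies Cdca8 (-1.19) and Bub1b (-0.72) with CD163 and Kif2c (-0.69) with CD206 were past the fold, against 15.3% and 14.2% of genes. The deposited antibody list describes its CD106 entry as an antibody to CD68, with the catalogue number of CD106, and the entry is used here under its identifier. For CD68, CD106, CD183, CD201, P2X7R and MERTK no member was past it. The background there was 9.54%, 4.1%, 11.2%, 3.83%, 3.48% and 5.06% of promoters, and 5.65%, 2.78%, 6.95%, 2.34%, 2.1% and 3.24% of bodies.

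**Figure D5:**
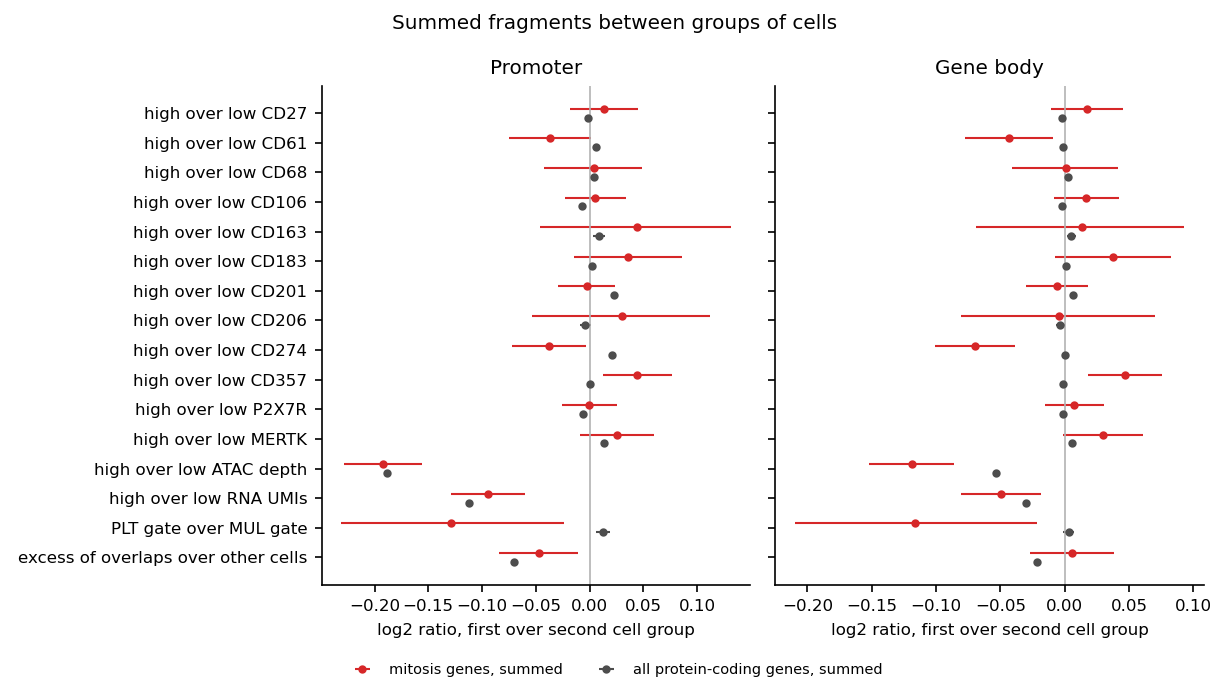
Log2 ratio of summed fragments between groups of cells for the mitosis genes and for all protein-coding genes, over promoters (left) and gene bodies (right), with exact conditional binomial 95% intervals. At promoters the members leave 0 for CD274, CD357, ATAC depth, RNA UMIs, the gates and the cells with an excess of overlaps, and all genes leave 0 in the same direction for depth (-0.19), UMIs (-0.11) and the excess of overlaps (-0.070).

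Across the 16 comparisons, 10 of 592 pairs of member and comparison were past the fold at promoters and 6 of 608 over bodies, and 13 comparisons had none. Over all genes, 8.36% of 250682 such pairs were past it at promoters and 5.74% of 290813 over bodies. These shares are not matched for fragment count: the median promoter level was 33.5 FPM in the members and 10.2 FPM in all genes. A smaller share of members past the fold is therefore not read as a trait of mitosis genes. At a minimum of 100 fragments the shares were 3.51% and 2.43% over all genes and 1.37% and 0.826% over the members. Across cells, the summed member promoter fragments followed nuclear fragments (Spearman rank correlation 0.62 over 3629 cells of 1 library). Given nuclear fragments, no antibody had a correlation beyond 0.060 (CD357). The values for MERTK (0.034), CD183 (0.031), CD27 (0.028), CD61 (0.0069), CD274 (-0.011) and RNA UMIs (-0.013) were weaker still, and none of these is a finding. With the promoter fragments of DNA replication genes the correlation was 0.073, with those of housekeeping genes 0.035 and with those of all promoters 0.20. Given all promoter fragments in place of nuclear fragments, the first 2 of these values were 0.043 and 0.019.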

How the data were processed

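DOGMA-seq of 1 pool of LT-HSCs gave 3 samples, which are assays of the same cells. The deposited files hold fragment counts per barcode position for ATAC (Cell Ranger ARC 2.0.2, per the submitters' processing notes, mm10), per-barcode counts of ATAC fragments and RNA UMIs, and antibody tag counts, for which the authors ran CITE-seq-Count (version not given in the sources used). The RNA matrix is not analysed here. Of 43705382 deposited fragments, 63055 on unplaced contigs were left out, and 3629 of the 4369 called cells were kept, at 10 or more tags.

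Fragments overlapping a window were counted over the promoter, 1000 bp on each side of the start of the gene record. They were also counted over the gene body plus 2000 bp upstream, a window that includes the promoter window of each member. The 2 counts thus share fragments. Levels were scaled by nuclear fragments. Cells were split into high and low groups as near to 25% at each end as ties allow, or present against absent, and ratios had 0.5 added to each count. A comparison past the fold needed 1.5-fold and 20 fragments, summed over the 2 groups. Levels have exact Poisson intervals, shares exact binomial ones and ratios exact conditional binomial ones, and all cover counting error only. Excess of overlaps was called where sites with more than 2 overlapping fragments were too many against the mean over all cells, at an adjusted Poisson probability below 0.01. The depth of a cell was not taken into account. No test between groups was made because cells are not replicates. The scripts were tested on simulated data. All 38 genes are named. Of related pathway lists the 3 highest and 3 lowest promoter levels are named, of other lists medians and counts, and in each comparison the members past the fold. A gene of the replication list that this rule would name is not reported here. The members and lists were chosen with earlier results of these data known. Python 3.11.15, numpy 2.4.6, scipy 1.17.1, pandas 2.3.3 and matplotlib 3.10.9 were used. Alternatives covered windows, starts, cells, scaling, splits and thresholds.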

Additional observations from a re-analysis of the deposited data

Results flagged for a closer look

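Barcodes not called as cells, which the comparisons do not use, held 3215 fragments over the mitosis promoters, among 2794021 nuclear fragments. That is 1151 FPM, against 1377 FPM in the kept cells, and it drew attention because these barcodes lie outside the cells compared. In those barcodes 32.5% of fragments lay in promoters, against 40.0% in the kept cells, and 748 fragments lay in olfactory receptor promoters. In the kept cells 5443 of 38498362 nuclear fragments lay there.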

How the results depend on the processing

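No paired analysis was possible because the 3 samples are different assays of 1 pool of cells, and no replicate could be left out. The median promoter level (33.5 FPM) was 31.0 with 500 bp on each side and 31.6 in cells with at least 50 tags. With insertions it was 65.9, but there both ends of each fragment are counted while the scale is still nuclear fragments. That value is therefore not a change in level. Pairs of member and comparison past the fold (10 at promoters, 6 over bodies) became 96 and 80 in cells with at least 50 tags, 19 and 15 after thinning, 60 and 38 at the lower fold tried, and 1 and 1 at 2-fold. Over all genes 21.3% and 16.2% of pairs were past the fold in cells with at least 50 tags, 9.95% and 7.01% after thinning, 20.9% and 15.1% at the lower fold, and 2.83% and 1.86% at 2-fold, against 16.8% and 13.5%, 3.21% and 2.47%, 10.1% and 6.25%, and 0.169% and 0.164% of the members. The cells with at least 50 tags number 363, and the cause of these changes was not tested.

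Among cells with at least 50 tags, summed promoter ratios were 0.11 (CD27), -0.048 (CD163, from 0.044), 0.042 (CD201, from -0.0027), -0.00060 (CD357, from 0.045), 0.038 (P2X7R, from -0.00028), 0.10 (MERTK), -0.054 (ATAC fragments), -0.0060 (RNA UMIs) and -0.0076 (excess of overlaps). Over bodies they were 0.11 (CD27), 0.022 (CD61, from -0.043), 0.038 (CD201, from -0.0057), -0.013 (CD357, from 0.047), 0.034 (P2X7R), 0.077 (MERTK), -0.040 (ATAC fragments) and -0.028 (excess of overlaps, from 0.0058). Those given with their original value changed sign. Rank correlations there were 0.15 (CD27), 0.086 (CD201), -0.068 (CD274), 0.13 (MERTK), 0.089 (RNA UMIs, from -0.013) and 0.80 (nuclear fragments). Scaling by promoter fragments gave -0.0036 for ATAC fragments, 0.017 for RNA UMIs (reversed) and 0.023 for excess of overlaps (reversed) at promoters, and 0.069 (reversed), 0.063 (reversed) and 0.076 over bodies.

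Outer tertiles gave 0.0013 (sign reversed) and -0.0059 for CD61 at promoters and bodies. Shares of tags gave 0.088 and 0.097 for CD357 and -0.0048 for CD61 over bodies. Thinning to 6000 fragments gave -0.058 (CD163, reversed) and -0.091 (excess of overlaps) at promoters and 0.095 (CD183), -0.084 (ATAC fragments) and -0.21 (gates) over bodies. Within bins of ATAC depth the RNA UMI ratio was -0.038 and -0.013. Keeping members with no other start within 1 kb, an alternative chosen after seeing the data, as were RefSeq starts, gave -0.28 for the gates. The correlation with RNA UMIs was 0.23 without a covariate (reversed), and that with nuclear fragments 0.56 without the deepest 5% of cells and 0.55 without cells with an excess of overlaps. The CD274 ratio kept its sign in 14 of 14 promoter and 9 of 9 body alternatives (-0.072 to -0.024 and -0.10 to -0.057), and the gate ratio in 12 of 12 and 7 of 7 (-0.28 to -0.046 and -0.21 to -0.070). Promoter and body windows share fragments, so their signs are not independent.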
